A study of Mus musculus with 3 samples.

Results

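Signals of 10 genes known to be induced by hypoxia were followed through palatal fusion: *Adm*, *Vegfa*, *Slc2a1*, *Ldha*, *Pdk1*, *Bnip3*, *Ndrg1*, *P4ha1*, *Egln3* and *Ankrd37*. They were taken by name, as a readout of oxygen supply in suspension culture, and every probe set that named one of them was used. These 10 genes had 23 of the 45037 probe sets that were not array controls, and the arrays named 18193 genes in all. Palatal tissue of ICR mouse fetuses, labelled female, was collected before, during and after fusion and hybridized to Affymetrix GeneChip mouse genome arrays, with 1 array per stage and 3 arrays in all. Maxillae were removed at embryonic day 14 and kept in suspension at 37 °C in BGJb medium with antibiotics, in sealed bottles filled with 95% O2 and 5% CO2. All stages shared this genotype, medium and gas. The tissue before fusion was the edge of the palatal shelves after 5 h in culture, when the shelves were not in contact. The tissue during fusion was median palate after 24 h, and that after fusion was median palate after 60 h. Stage, hours in culture and piece of tissue changed together and cannot be told apart. The oxygen level in the tissue was not among the values analysed, and there was no culture under another gas. The methods say that several palates per stage were collected and their RNA prepared individually. They do not say whether these RNAs were combined for the array of a stage, and the labels and the methods name different RNA extraction kits.

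Cells sense oxygen largely through hypoxia-inducible factors (HIF), which pair an oxygen-regulated α subunit with ARNT. In the presence of oxygen, prolyl hydroxylases of the EGLN family modify the α subunit, and the VHL protein then marks it for degradation. When oxygen is scarce the α subunit persists, enters the nucleus and binds DNA at a short core motif, which raises the transcription of genes for blood vessel growth, glucose uptake, glycolysis and mitochondrial turnover. Since the α subunit is regulated mainly as a protein, its mRNA need not follow its activity. Several HIF targets also respond to other signals, such as growth factors, nutrients and iron.

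The core motif is ACGTG or GCGTG, and the annotated starts of the genes were searched for both on either strand. RefSeq promoter windows of build GRCm38.p6, from 250 bases before to 50 after a start, were found for 9 genes (12 windows). *Ndrg1* was not matched. At least 1 window of each of these 9 genes held a match, and 10 of the 12 windows did. For *Vegfa*, the window at the upstream start held 0 matches. Its 2 matches lay in the window of another annotated start, further downstream in the gene. Among all 32851 windows of the same length, 43.8% held at least 1 match and 20.6% at least 2, against 9 of the 12 windows here. The upstream sequence of 4 genes is shown, 5′ to 3′ on the strand of the gene, with the matches in capitals. *Adm* and *P4ha1* are shown because they had signals over 2-fold higher after fusion than before, and *Ldha* and *Bnip3* because their windows held the most matches while their signals stayed within 2-fold. CACGC and CACGT are the motifs read on the opposite strand, and a CACGTG run holds a match on each strand and is also the core of an E-box, which other factors bind.
Adm (chr7:110627407-110627656, plus strand): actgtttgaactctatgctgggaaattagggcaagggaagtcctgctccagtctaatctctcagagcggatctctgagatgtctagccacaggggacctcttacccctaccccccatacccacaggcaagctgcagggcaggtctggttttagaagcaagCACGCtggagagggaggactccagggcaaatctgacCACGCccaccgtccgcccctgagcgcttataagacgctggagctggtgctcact
P4ha1 (chr10:59323046-59323295, plus strand): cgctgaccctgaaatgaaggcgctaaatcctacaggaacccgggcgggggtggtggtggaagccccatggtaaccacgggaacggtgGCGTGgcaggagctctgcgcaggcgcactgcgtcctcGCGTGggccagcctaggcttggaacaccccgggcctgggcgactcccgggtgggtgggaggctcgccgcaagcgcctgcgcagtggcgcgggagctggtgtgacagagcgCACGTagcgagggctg
Bnip3 (chr7:138909507-138909756, minus strand): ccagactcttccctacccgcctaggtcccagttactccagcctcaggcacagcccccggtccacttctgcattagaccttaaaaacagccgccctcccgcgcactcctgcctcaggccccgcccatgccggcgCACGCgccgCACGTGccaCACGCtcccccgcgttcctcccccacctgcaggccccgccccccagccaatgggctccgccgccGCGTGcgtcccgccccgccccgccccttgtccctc
Ldha (chr7:46845554-46845803, plus strand): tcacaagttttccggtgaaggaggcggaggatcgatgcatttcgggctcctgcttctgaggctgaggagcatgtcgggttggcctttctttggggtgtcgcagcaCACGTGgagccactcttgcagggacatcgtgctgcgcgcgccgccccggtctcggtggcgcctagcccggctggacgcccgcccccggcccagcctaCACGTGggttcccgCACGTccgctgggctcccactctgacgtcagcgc

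The upstream sequence of *Adm* held 2 matches, both GCGTG on the opposite strand. That of *P4ha1* held 3, with 1 of them ACGTG. *Bnip3* had 5, of which 2 overlapped in 1 CACGTG run. The window of *Ldha* held 7 matches, of which 4 lay in 2 CACGTG runs and 2 lay after the start. Only 0.301% of all windows held as many matches as *Ldha*, and 1.66% as many as *Bnip3*. For *P4ha1* that share was 8.93%, and for *Adm* 20.6%. CACGTG was present in 7.15% of all windows. These are matches of letters in a short window, and binding was not measured. The 4 genes were picked for their ratios and their matches, so no relation between these is read from them.

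**Figure D1:**
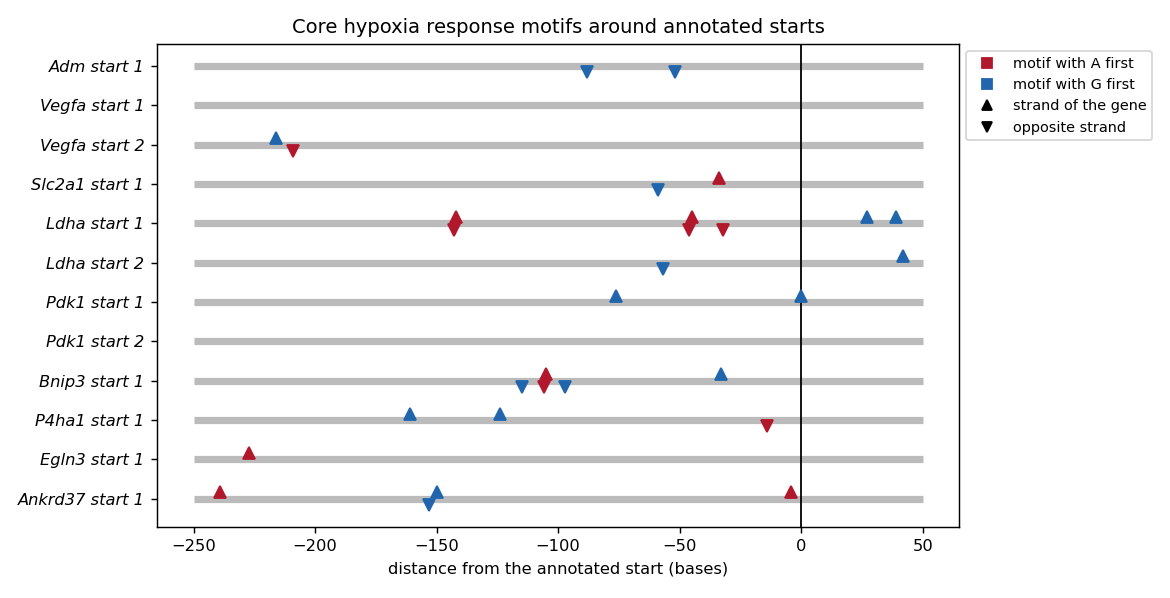
Positions of the core motifs in the 12 promoter windows of 9 genes, with the distance of each match from the annotated start in bases on the horizontal axis. Colours give the 2 motifs and triangles the strand, and the first window of *Ldha* holds 7 matches while 1 window each of *Vegfa* and *Pdk1* holds 0.

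The signals were linear intensities, and factors of 1.115, 0.918 and 0.986 brought the 3 arrays to a common trimmed mean. A floor was set on each array from probe sets of sensory receptor genes, at 19.4, 13.3 and 14.7, and 56.8% to 65.6% of probe sets lay above it. With 1 array per stage, no difference between stages has a replicate or a test. The only error that these arrays give is how far probe sets for the same gene differ. On the log2 scale its SD was 0.37 in the ratio of during to before fusion, 0.46 in that of after to before and 0.44 in that of after to during. Where both signals were over 100 it was 0.23, 0.31 and 0.26. A ratio over 2-fold was counted, and each gene was represented by its brightest probe set, the one with the highest mean over the 3 arrays. Where a signal lay under the floor, the ratio is a bound computed with the floor. The array before fusion serves both comparisons with it, so these are not independent. In whole tissue, fewer cells of a type and less RNA per cell cannot be told apart.

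Of the hypoxia-induced genes, *Adm* (12.3-fold, from a signal at the floor), *Ndrg1* (5.15-fold), *P4ha1* (3.02-fold) and *Egln3* (2.06-fold) were over 2-fold higher after fusion than before. The *Egln3* ratio went under 2-fold in 3 of the 6 scalings of the arrays, and its second probe set was at least 1.40-fold lower. *Bnip3*, *Slc2a1* and *Ldha* had ratios between 1.27 and 1.83, whereas *Pdk1* and *Vegfa* had ratios of 0.988 and 0.982. *Ankrd37* gave no ratio, since its first signal was below the floor and the later ones were at or barely above it. Of the 9 genes with a ratio, 4 were over 2-fold higher after fusion than before, where 12.9% of all 13586 genes tested were. None of the 9 was over 2-fold lower, where 9.87% of all genes were. The median log2 ratio of the 9 genes was 0.87, beside -0.07 for all genes. During fusion, *Adm* (3.78-fold) and *Ndrg1* (2.73-fold) were the 2 of 9 genes over 2-fold higher than before, beside 5.76% of 13202 genes, and 0 were over 2-fold lower, beside 3.36%. The median log2 ratio was 0.52 during fusion, against -0.02 for all genes.

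From during to after fusion, *Adm* (3.26-fold) and *P4ha1* (2.11-fold) were over 2-fold higher, 2 of 9 genes beside 8.83% of 14178, and 0 were over 2-fold lower, beside 5.13%. *P4ha1* went under 2-fold in that comparison for the signals as deposited and for scaling to the hybridization or the poly-A controls. The median of the 9 genes was 0.41 on the log2 scale. For 7 of the 9 genes the signal was higher at each step, as it was for 21.9% of the 11828 genes above the floor on all 3 arrays. The exceptions were *Vegfa* and *Pdk1*. Under the 6 scalings of the arrays this count lay between 6 and 8, and it took in *Vegfa* for the signals as deposited.

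**Figure D2:**
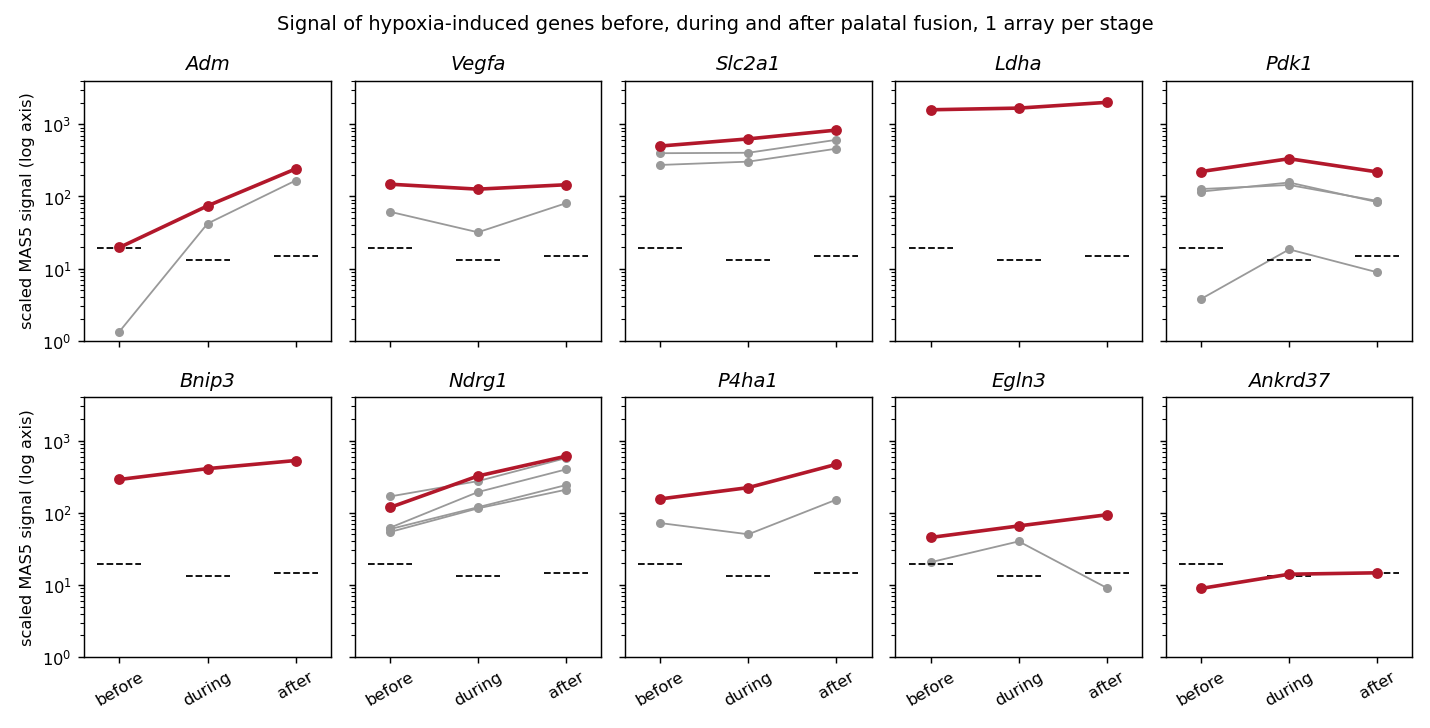
Scaled signal (log axis) of each probe set of the 10 genes before, during and after fusion, with 1 array per stage. Red marks the brightest probe set, grey the others and the dashed lines the floor of each array, and *Adm* starts at its floor while *Ankrd37* stays near it.

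Counted by probe set, 6 of 21 with a ratio were over 2-fold higher during than before fusion (5.15% of all probe sets). After fusion 10 of 21 were over 2-fold higher than before (10.2% of all), and 8 of 22 were over 2-fold higher than during fusion (6.74% of all). Under the 6 scalings of the arrays these counts of 6, 10 and 8 lay between 3 and 7, 8 and 11, and 4 and 10. In the first 2 comparisons 0 probe sets of these genes were over 2-fold lower, and in the last 1 was, a second probe set of *Egln3*. These probe sets came from few genes, and 5 of them measured *Ndrg1*.

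**Figure D3:**
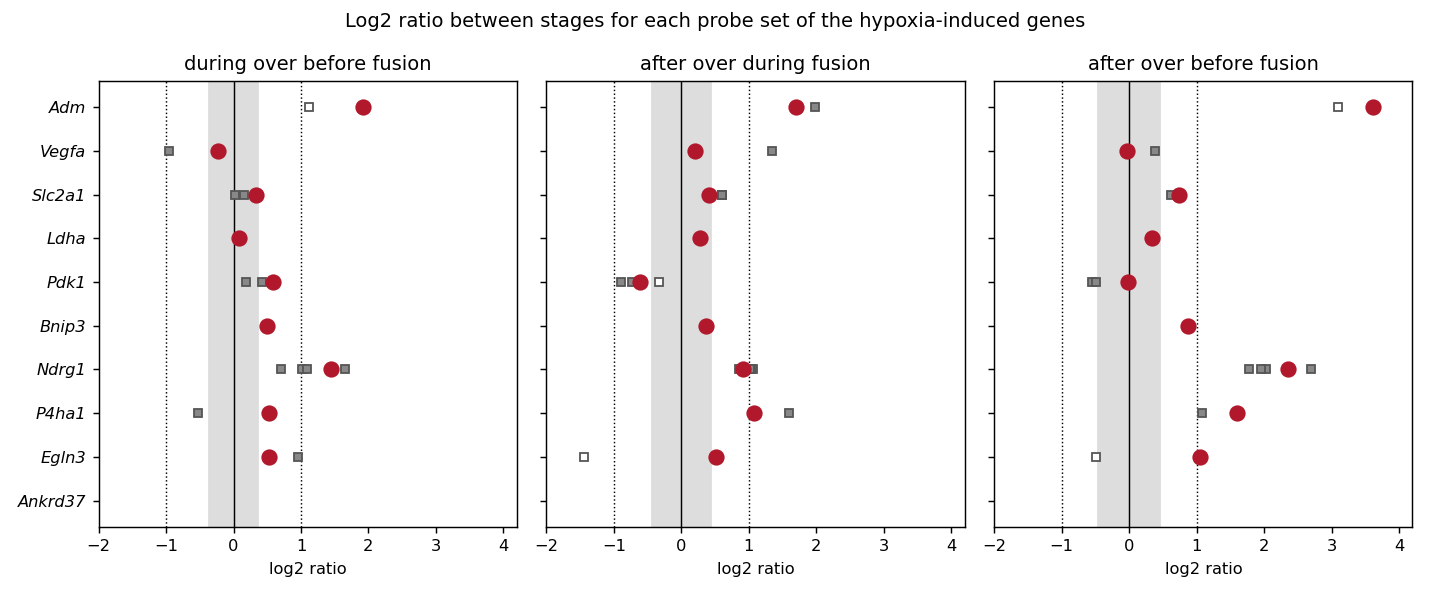
Log2 ratio of each probe set between stages, with red circles for the brightest probe set, grey squares for the others and open squares for bounds. The grey band is 1 SD among probe sets for the same gene and dotted lines mark 2-fold, and after fusion over before, all probe sets of *Adm*, *Ndrg1* and *P4ha1* lie beyond 2-fold.

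The secreted signals differed. *Adm* encodes adrenomedullin, a peptide that widens blood vessels and supports the lymphatic vasculature. Its brighter probe set (1447839_x_at) read 19.6 before fusion, 74.1 during it and 241.2 after it. The second (1416077_at) gave 1.34, 42.1 and 166.4, and its first value lay under the floor. In both probe sets the signal was lowest before and highest after fusion. The ratio of after to before fusion was 12.3 (3.62 on the log2 scale), and at least 8.58 by the second probe set. Since the signal before fusion was at or under the floor in both, the size of the ratio depends on the floor. It was 3.10 on the log2 scale with the second probe set, which is not marked as shared with other sequences, and 2.86 with the floor added to both signals. The ratio of after to during fusion, where all signals were well above the floor, was 3.26 and 3.96.

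*Vegfa*, the main growth factor for blood vessels, gave 148.1, 126.4 and 145.5 in its brighter probe set (1420909_at). The second (1451959_a_at) gave 61.4, 31.9 and 80.7. Both were lowest during fusion, although the brighter was lowest before fusion in the signals as deposited (132.9, 137.6 and 147.5), and neither was over 2-fold different before and after. The brighter probe set lay within 1.17-fold of its starting value throughout, and the second was 1.93-fold lower during fusion and then 2.53-fold higher after it. The sign of the *Vegfa* ratio to before fusion changed with the scaling of the arrays, between -0.51 and 0.05 on the log2 scale during fusion and between -0.40 and 0.15 after.

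Receptors and relatives of these signals were taken as background to them. *Calcrl*, the adrenomedullin receptor, gave 147.5, 131.4 and 146.7. Of the proteins that carry it to the cell surface and set its ligand, *Ramp2* gave 480.0, 329.7 and 266.0, and *Ramp3* 92.4, 194.0 and 172.3. *Ramp1*, which makes the receptor respond to a related peptide, CGRP, gave 37.8, 141.2 and 416.3, but of its 3 probe sets the 2 with a ratio disagreed, with log2 ratios of -0.37 and 3.46 after over before fusion. *Adm2*, a related peptide, gave 83.7, 11.3 and 53.8, so that it was at least 6.29-fold lower during fusion than before. *Kdr*, the main VEGF receptor of endothelium, gave 146.4, 103.1 and 74.0, and *Flt1*, largely a decoy receptor, 37.7, 40.1 and 27.6. *Vegfb* and *Vegfc* were 1.36-fold and 1.62-fold lower after fusion than before, and *Pgf* 1.16-fold higher. Of the 14 partner genes of all 10 hypoxia-induced genes, 2 exceeded their signal before fusion by over 2-fold during it (5.76% of all genes did) and 1 after it (12.9%), and 0 were over 2-fold lower in either.

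Among genes of glucose uptake and of pyruvate use, *Slc2a1*, *Ldha* and *Pdk1* stayed within 2-fold by their brightest probe sets. *Slc2a1* encodes GLUT1, the widespread glucose transporter. Its 3 probe sets gave 501.2, 630.0 and 834.6, then 398.6, 404.4 and 611.3, and 273.9, 304.5 and 460.5, before, during and after fusion. All 3 were highest after fusion, by 1.67-fold, 1.53-fold and 1.68-fold over before. During fusion their ratios to before lay between 1.02 and 1.26. *Slc2a3*, the GLUT3 transporter, moved the other way on the same arrays, with 1210, 604.9 and 277.4. It was 4.36-fold lower after fusion than before, and each of its 4 probe sets was over 2-fold lower. The insulin-responsive *Slc2a4* was within 1.40-fold.

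*Ldha*, the lactate dehydrogenase subunit that favours the making of lactate, gave 1597, 1684 and 2024. Its ratio of 1.27 after over before fusion (0.34 on the log2 scale) was within 1 SD of the spread between all probe sets and close to the 0.31 of bright ones. It changed sign with the scaling, from -0.03 to 0.52. *Ldhb*, the subunit that favours the use of lactate, gave 1586, 1462 and 959.7, and was 1.65-fold lower after fusion than before.

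*Pdk1* encodes a kinase that limits the use of pyruvate in the mitochondria by inhibiting pyruvate dehydrogenase. Its brightest probe set gave 221.9, 334.4 and 219.2. Others gave 126.9, 144.4 and 86.9 and 116.9, 156.4 and 83.5, while the dimmest, at 3.79, 18.5 and 8.88, cleared the floor during fusion alone. All 4 were highest during fusion. After fusion the 3 brighter probe sets were 1.53-fold to 1.87-fold lower than during, so *Pdk1* was the 1 gene of 9 with a ratio under 1 in that comparison. Over before fusion it was 0.988, 0.685 and 0.714. Of its relatives, *Pdk4*, which starvation and fat use induce, lay under the floor before fusion at 12.9 and gave 60.9 and 132.1 thereafter, at least 6.81-fold higher after fusion. *Pdk2* gave 151.2, 65.9 and 117.0, and *Pdk3* 323.4, 374.4 and 462.6. The subunits of the target enzyme, *Pdha1* (945.5, 1016 and 978.8) and *Pdhb* (1472, 1398 and 1525), were nearly level.

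Most of the other genes of glycolysis had ratios to before fusion under 1. Of 16 listed, 13 had a probe set that named them alone, and of these 1 had a ratio above 1 during fusion and 4 after it. After fusion 1 was over 2-fold higher than before (12.9% of all genes were) and 1 over 2-fold lower (9.87%), the latter *Slc2a3*. The median log2 ratio of the 13 was -0.21 during and after fusion, beside -0.02 and -0.07 for all genes. Under the 6 scalings of the arrays it changed sign during fusion (-0.49 to 0.07) and lay between -0.59 and -0.04 after it. *Aldoc*, an aldolase, gave 279.5, 499.5 and 650.6 and was 2.33-fold higher after fusion. *Aldoa* was 1.49-fold higher and *Hk2*, a hexokinase, 1.52-fold higher. *Pgk1*, a glycolytic enzyme and a classical HIF target, gave 2929, 2060 and 2041, 1.44-fold lower after fusion, and *Pkm*, pyruvate kinase, gave 2648, 1510 and 1432, 1.85-fold lower. The 3 probe sets of *Pgk1* disagreed during over before fusion, with log2 ratios from -0.51 to 0.42, and gave -0.52 to -0.22 after over before. *Gapdh* was measured by 3 control probe sets of the array alone, and their log2 ratios after over before fusion lay between -0.61 and -0.47.

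Genes of mitochondrial turnover and stress were next. *Bnip3* encodes a protein of the outer mitochondrial membrane that directs mitochondria to autophagy. Its only probe set gave 290.0, 410.0 and 531.2, which was higher at each step. The ratios were 1.41 during and 1.83 after fusion over before, under 2-fold, and 2.07 after fusion when the signals were used as deposited.

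*Ndrg1*, a gene of cell stress and differentiation, had 5 probe sets, more than any other of the 10 genes. The brightest gave 118.5, 324.0 and 609.9. The others gave 168.4, 275.2 and 574.1, then 62.0, 194.0 and 400.1, then 59.3, 119.5 and 242.5, and then 54.1, 115.2 and 209.2. All 5 were higher at each step. After fusion over before, their ratios were 5.15, 3.41, 6.46, 4.09 and 3.87. During fusion over before, 4 of the 5 were over 2-fold higher, the lowest of them barely so (2.015 and 2.132), and the other 1.63-fold. Under the 6 scalings the ratio of the brightest lay between 3.97 and 5.82 after over before fusion. Of its relatives, *Ndrg2* gave 274.4, 357.9 and 265.7, *Ndrg3* 212.0, 176.0 and 213.5, and *Ndrg4* 355.0, 468.6 and 219.5.

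The enzymes that hydroxylate proline with oxygen were represented by *P4ha1* and *Egln3*. *P4ha1* is the catalytic subunit of the enzyme that hydroxylates collagen, without which the collagen helix is not stable. Its brighter probe set gave 155.8, 223.6 and 470.9, and the second 72.0, 50.3 and 152.4. Both were highest after fusion, 3.02-fold and 2.12-fold over before, but they moved in opposite directions from before to during fusion (1.44-fold higher and 1.43-fold lower). *P4ha2*, which has the same task, gave 126.3, 181.7 and 222.7, within 2-fold, and *P4ha3* 60.5, 70.2 and 42.2. *P4hb*, the partner subunit, gave 5501, 4314 and 4973.

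*Egln3* is the prolyl hydroxylase of the HIF α subunits that HIF strongly induces, a negative feedback. Its 2 probe sets disagreed. The brighter (1418649_at) gave 45.5, 65.8 and 93.9, a ratio of 2.06 after over before fusion. The second (1418648_at) gave 20.6, 40.1 and 9.07, the last under the floor, and so was at least 1.40-fold lower after fusion than before and at least 2.73-fold lower than during it. From before to during fusion both were higher, by 1.45-fold and 1.95-fold. The ratio of 2.06 fell to under 2-fold with quantile normalization, with scaling to the hybridization or the poly-A controls, with the floor added to both signals, and with the median over the 2 probe sets. *Ankrd37*, a small ankyrin repeat gene that HIF induces directly, gave 8.92, 14.1 and 14.7. The first value was under the floor of its array (19.4), the next just above its own (13.3) and the last at it (14.7), and no direction is given. Its promoter window held 4 matches.

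**Figure D4:**
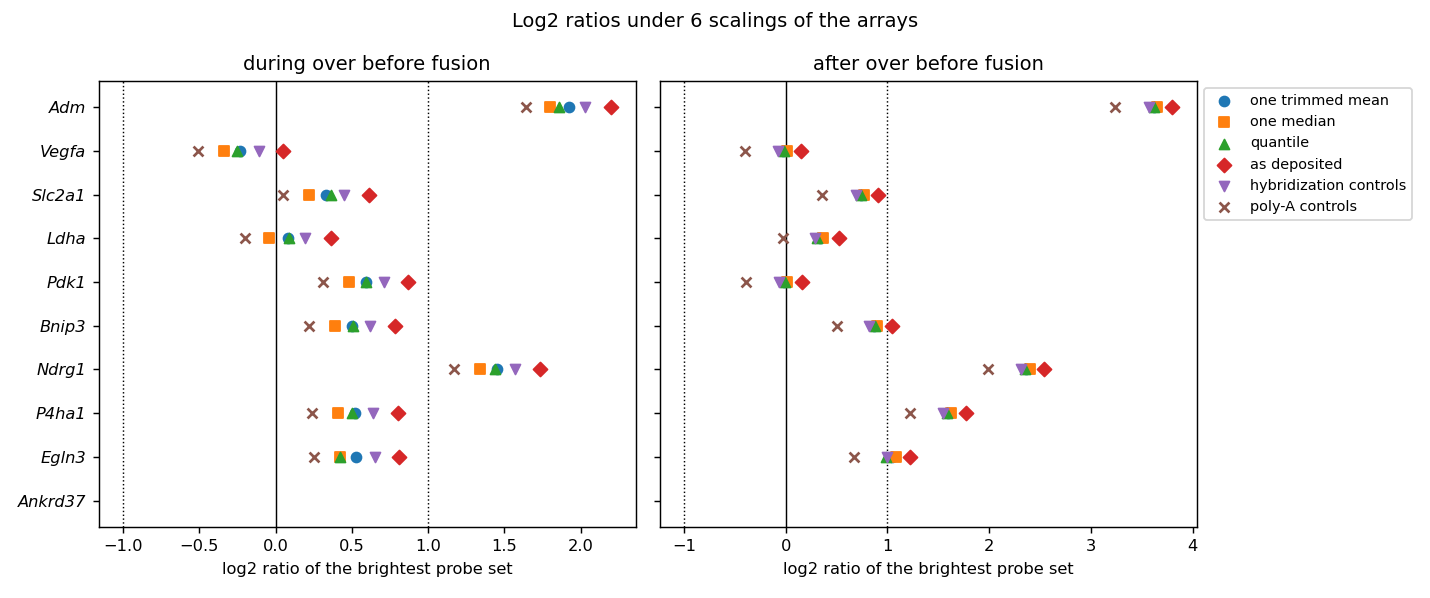
Log2 ratio of the brightest probe set of each gene to before fusion under 6 scalings of the arrays, with dotted lines at 2-fold. *Adm* and *Ndrg1* stay beyond 2-fold in both panels and *P4ha1* after fusion, while *Egln3* crosses 2-fold after fusion and *Vegfa*, *Ldha* and *Pdk1* cross 0 in at least 1 panel.

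Of the oxygen-sensing pathway itself, 9 genes had a ratio. After fusion 0 of them were over 2-fold lower than before (9.87% of all genes were) and 1 was over 2-fold higher (12.9%). This was *Epas1*, which encodes the HIF-2α subunit found in endothelium and several other cell types. It gave 209.9, 582.4 and 2694, a ratio of 12.8 after over before fusion, and its 2 probe sets gave log2 ratios of 3.17 and 3.68. *Hif1a* gave 1296, 2089 and 1626, highest during fusion and within 2-fold. *Arnt* gave 204.2, 135.7 and 310.9, and *Hif3a*, a HIF α subunit that can act as an inhibitor, 426.1, 294.6 and 268.2. Probe sets of *Arnt* disagreed during over before fusion (log2 ratios of -0.59 to 0.08), as did those of *Hif3a* (-0.53 to 0.06). After over before fusion they gave 0.14 to 1.04 for *Arnt* and -1.46 to -0.67 for *Hif3a*. Of the genes whose proteins restrain HIF, *Egln1* was 1.73-fold lower after fusion, *Egln2* 1.46-fold and *Hif1an* 1.76-fold, none of them past 2-fold in the main scaling. Under the 6 scalings of the arrays, between 0 and 4 of the 9 genes were over 2-fold lower after fusion than before. At the lowest, the log2 ratio of *Egln1* was -1.16 and that of *Hif1an* -1.20. *Vhl* gave 320.0, 265.9 and 309.0, and *Arnt2*, a relative of *Arnt*, 252.8, 199.6 and 162.1. The median log2 ratio of the 9 genes was -0.54 after over before fusion, beside -0.07 for all genes.

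A further list held 34 known HIF targets other than the 10 genes, 28 of them with a ratio. Relative to before fusion, 3 of the 28 passed 2-fold upward during fusion (5.76% of all genes did) and 7 after it (12.9%). Downward, 1 passed it during fusion (3.36%) and 1 after it (9.87%). Their median log2 ratio was 0.27 during and 0.30 after fusion, beside 0.52 and 0.87 for the hypoxia-induced genes and -0.02 and -0.07 for all genes. *Bhlhe40*, a clock-linked repressor, gave 42.4, 273.5 and 354.6, 8.37-fold higher after fusion. *Hmox1*, heme oxygenase, which oxidative stress also induces, gave 107.7, 253.7 and 763.4, 7.09-fold higher. *Lox*, which crosslinks collagen, gave 413.3, 1048 and 2241, 5.42-fold higher, although 1 of its probe sets gave a log2 ratio of -0.11.

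Other targets of the same list were lower. *Car9*, a carbonic anhydrase widely used as a marker of hypoxia, gave 41.0, 29.5 and 23.1, and was 1.78-fold lower after fusion. *Cited2*, a feedback inhibitor of HIF, gave 780.4, 436.9 and 314.8 and was 2.48-fold lower, although its second probe set gave a log2 ratio of -0.18. *Stc2*, a secreted glycoprotein, gave 73.6, 15.2 and 41.0 and was 4.83-fold lower during fusion, where its signal was just above the floor (13.3). Its 3 probe sets gave log2 ratios between -2.27 and -0.98 in that comparison. *Plod1*, which hydroxylates lysine in collagen, gave 200.5, 104.4 and 169.6 and was within 2-fold.

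**Figure D5:**
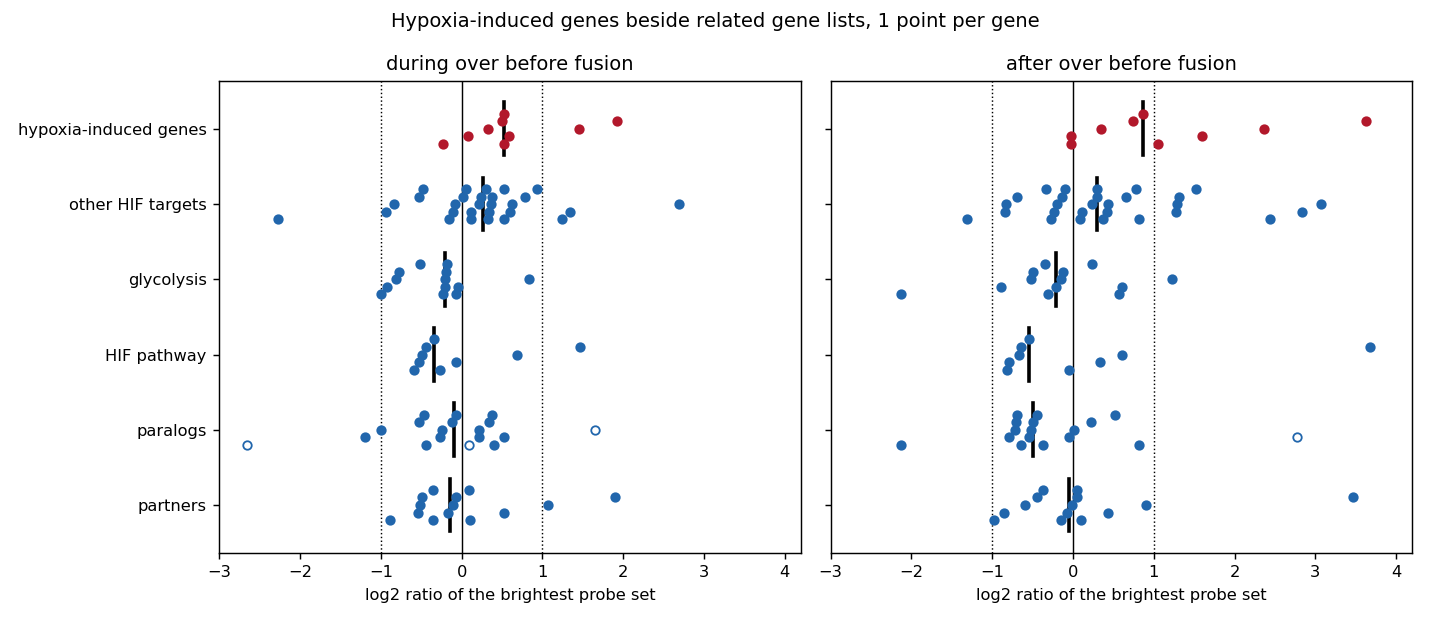
Log2 ratio of each gene (points, open where the ratio is a bound) during and after fusion over before, for the hypoxia-induced genes (red) and 5 related lists (blue), with the median of each list as a black bar. The medians of the hypoxia-induced genes are 0.52 and 0.87, and those of glycolysis are -0.21 in both panels.

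Cell type markers moved over the same stages. Summed signals of 6 epithelial markers were 6626, 13711 and 15092 before, during and after fusion. After fusion 3 of the 6 were over 2-fold higher than before, while *Trp63* was 1.63-fold lower. The sums of 5 macrophage markers were 415.8, 867.0 and 2167. By their brightest probe sets 5 of 5 were over 2-fold higher after fusion, although another probe set of *Csf1r* gave a log2 ratio of 0.85. The sums of 3 osteoblast markers were 229.2, 3069 and 5519, with 3 of 3 over 2-fold higher. Those of 5 palatal mesenchyme markers were 6699, 4281 and 2309, with 4 of 5 over 2-fold lower after fusion by their brightest probe sets. Of these 4, *Pdgfra* and *Prrx1* had other probe sets that disagreed, with log2 ratios up to 1.45 and 0.65. The 5 endothelial markers, from cells that make and answer several of these signals, summed to 791.3, 408.3 and 440.3, all above the floor, with 1 of 5 over 2-fold lower after fusion. The 4 red cell markers summed to 14548, 9789 and 1924, with *Hba-a1* under the floor on every array. Of the 3 that had a ratio, 2 were over 2-fold lower after fusion than before and *Alas2* was 1.27-fold higher. The 5 muscle markers summed to 487.7, 166.4 and 90.2, with *Tnnt3* under the floor on every array and *Myod1* during and after fusion. Of the osteoblast markers, *Ibsp* was under the floor before fusion, while *Sp7* and *Alpl* were above it. The part of these shifts in the signals of *Adm*, *Ndrg1*, *P4ha1* and the other hypoxia-induced genes was not tested. As a sign of RNA quality, the ratio of the 5′ to the 3′ control probe set of *Actb* was 0.718, 0.713 and 0.718 in deposited signals.

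The genes with ratios most like the median of the hypoxia-induced genes (0.52 during and 0.87 after fusion over before, on the log2 scale) were *Slf1*, *Sacm1l*, *Tmbim4*, *Hivep2* and *Inca1*. Their distances from it were 0.012 to 0.032 on the log2 scale, over 2 ratios from 3 arrays. Within 0.5 of that median lay 1355 of 11828 genes, so the likeness is a common one.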

How the data were processed

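Palatal tissue from 3 stages was measured on 3 arrays, 1 per stage. The authors computed the deposited intensity values, 1 linear signal per probe set, by MAS5 in the scanner maker's GeneChip Operating Software, with background correction. No scaling target is given in the sources used here, and the deposited trimmed means were 123.6, 150.0 and 139.7.

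Since these differed, each array was multiplied to reach a common trimmed mean, without the top and bottom 2% of signals. On each array the floor was set at percentile 95 of 81 probe sets for sensory receptors. Probe sets were named through the platform annotation, with 34945 naming 1 gene, 932 several and 9160 none, and 34741 symbols were brought up to date by gene ID. Several of the genes were measured by more than 1 probe set, and the brightest stood for the gene. The number of arrays limits the precision, as 1 array per stage allows neither a test nor an SD, and no p-value is given. All samples were mapped to stages by their titles, and culture hours come from the study's description of the tissue.

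The genes and the lists (glycolysis, other HIF targets, HIF pathway, paralogs, partners, ATF4 targets, housekeeping and 7 cell types) were chosen with earlier results of these data known. Named genes were all 10 hypoxia-induced genes, genes from the 3 largest and 3 smallest ratios of each list, genes of the HIF pathway, paralog and partner lists, and the 5 nearest profiles. Cell type markers under the floor were named besides. The alternatives were 5 other scalings, no floor, a floor at each median, the floor as a pseudocount, the median over probe sets, other fold thresholds and the brightest probe set not marked as shared. Python 3.11.15, pandas 2.3.3 and numpy 2.4.6 were used, and the steps were tested on simulated data.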

Additional observations from a re-analysis of the deposited data

How the results depend on the processing

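Of the genes over 2-fold higher after than during fusion (2 of 9), 1 was left with the signals as deposited, with scaling to the hybridization controls, with scaling to the poly-A controls and with a threshold of 3-fold. The count was 3 with arrays scaled to one median, where *Ndrg1* passed, and 3 with the median over probe sets, with the brightest probe set not marked as shared and with a threshold of 1.5-fold. With a threshold of 3-fold, 1 gene was left of the 2 higher during than before fusion. With a threshold of 1.5-fold, 1 gene (*Pdk1*) was over the threshold lower after than during fusion, where 0 were over 2-fold lower. The other counts of higher genes lay between 3 and 6 for after over before fusion, where 4 were over 2-fold higher, under all alternatives. The median log2 ratio of the 9 genes kept its sign, from 0.24 to 0.80 for during over before, 0.50 to 1.05 for after over before and 0.22 to 0.60 for after over during fusion. The scalings moved the median of all genes by -0.28 to 0.28, -0.38 to 0.18 and -0.17 to 0.14 on the log2 scale. Of the ratios of single genes, 258 moved by less than the spread between probe sets and 12 by more. They were those of *Adm* with other floors or probe sets and those of *P4ha1*, *Pdk1*, *Egln3* and *Vegfa* with the median over probe sets. For *P4ha1* the median over probe sets was 0.00 during over before fusion, and for *Egln3* it was -0.47 after over during fusion. Of the values of the related lists, 2436 moved by less than that spread or kept their count, and 98 moved by more.

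The brightest probe set not marked as shared, and the count of genes higher at each step under other scalings, were chosen after seeing the data. No paired analysis was possible because there was 1 array per stage. For the same reason no array was left out. Among the hypoxia-induced genes, signal over background limits *Ankrd37*, *Adm* before fusion, the second probe set of *Egln3* and the dimmest of *Pdk1*.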

Other observations

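Genes of the amino acid stress response, most of which the factor ATF4 controls, were mostly lower during fusion and higher again after it. Of 14 listed, 8 were over 2-fold lower during fusion than before, beside 3.36% of all genes, and 0 were over 2-fold higher, beside 5.76%, with a median log2 ratio of -1.18. *Asns*, which makes asparagine, gave 2511, 450.1 and 1166 before, during and after fusion. *Slc7a3*, a transporter of basic amino acids, gave 585.4, 37.3 and 155.0, and *Slc7a5*, a transporter of large neutral ones, 1550, 218.6 and 658.2. From during to after fusion 8 of the 14 were over 2-fold higher, beside 8.83% of all genes, and 0 over 2-fold lower, beside 5.13%, with a median log2 ratio of 1.48. *Atf3*, a stress-induced factor, gave 53.1, 57.5 and 317.7, and *Ddit3*, a factor of the unfolded protein response, 165.0, 182.7 and 615.6. The 2 probe sets of *Ddit3* disagreed, with log2 ratios of 1.75 and 0.03 after over during fusion.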
